A study of Homo sapiens with 6 samples.

Results

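The ERK feedback genes described here are 10 genes chosen by name: the MAP kinase phosphatase genes DUSP1, DUSP4, DUSP5, DUSP6, DUSP8 and DUSP10, the Sprouty genes SPRY2 and SPRY4, and the Spred genes SPRED1 and SPRED2. All 10 were among the 17153 genes listed in each library, and all 10 reached the level needed for testing, as 11655 genes did. The study profiled bulk RNA of SNU449, an established human hepatocellular carcinoma cell line, in 6 libraries taken 48 h after transfection. The siOXTR group (3 libraries) received small interfering RNA against OXTR, the oxytocin receptor gene, and the siControl group (3 libraries) received a control siRNA. Both groups were of the same line, grown in RPMI-1640 with serum, and nothing in the labels says whether libraries of a group came from separate cultures, so each p-value reflects library-to-library spread alone and may be technical in part. Whether siOXTR was a pool is not given in the sources used here, so an effect of OXTR loss and an effect of the siRNA on other transcripts cannot be told apart.

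ERK is the last kinase of a relay that runs from growth factor receptors through RAS, RAF and MEK, and it is often overactive in liver cancer. Active ERK raises transcription of its own brakes. MAP kinase phosphatases remove the activating phosphates from ERK, JNK or p38, Sprouty proteins act between receptors and RAF, and Spred proteins bring neurofibromin, which switches RAS off, to the membrane. Levels of these transcripts are therefore often read as a sign of ERK output, although several also respond to other stimuli, stress kinases among them. ERK phosphorylation itself was not measured here.

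Values are FPKM, that is, fragment numbers corrected for gene length and for the size of the library, so levels can be compared between genes. OXTR was at 6.03, 6.11 and 6.14 FPKM in the siOXTR libraries, against 26.5, 26.6 and 24.6 FPKM in the siControl libraries, so every siOXTR library lay below every siControl library. FPKM summed to between 424168 and 429456 in siOXTR libraries and to between 412464 and 415902 in siControl libraries, and no library stood apart from its group (r of log2 values across genes at least 0.997 within a group). Of 9 hepatocyte markers, 8 were measured and none reached the level for testing. Their summed level was 1.02 to 1.18 FPKM in siOXTR and 1.48 to 1.88 FPKM in siControl, and APOB was listed at 0 in every library, so these markers were at or near 0 in both groups. Of 4 epithelial markers, the keratin genes KRT8 and KRT18 averaged 54.3 and 117 FPKM in siOXTR and 42.5 and 82.9 FPKM in siControl. EPCAM and CDH1 averaged 0.247 and 0.167 FPKM in siOXTR and 0.207 and 0.277 FPKM in siControl, too low to be tested. Of the mesenchymal markers, the intermediate filament gene VIM averaged 3390 FPKM in siOXTR and 1835 FPKM in siControl, and the fibronectin gene FN1 averaged 1.52 FPKM in siOXTR and 15.2 FPKM in siControl. The leukocyte gene PTPRC was at most 0.65 FPKM in siOXTR and 1.01 FPKM in siControl.

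The 10 feedback genes did not move as a block. DUSP1, DUSP5, DUSP8, DUSP10 and SPRY2 were 2.56- to 5.79-fold higher in siOXTR, DUSP4, DUSP6, SPRED1 and SPRED2 were lower, and SPRY4 did not pass the test. A gene is counted as higher or lower where limma, fitted to log2(FPKM + 1) of all tested genes, gave a Benjamini-Hochberg adjusted p under 0.05. By that rule 5 of 10 rose and 4 of 10 fell, a share of 90% called, beside 82.5% of all tested genes, of which 37.7% rose and 44.8% fell. A share that close to the background is no result about these genes as a set. In all 10 the siOXTR libraries lay wholly above or wholly below the siControl libraries, as in 83.0% of all tested genes. Changes of at least 1 on the log2 scale that also passed that rule were found in 5 of the 10, all upward. The share of all tested genes, in either direction, was 11.5%. The median log2 change of the 10 was 0.69, beside -0.06 for all tested genes. The 10, like the gene lists below, were chosen with earlier results of these data known. Such contrasts with all tested genes are therefore descriptions and not tests. RNA was measured in bulk, so more transcript per cell and more cells with the transcript cannot be told apart.

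**Figure D1:**
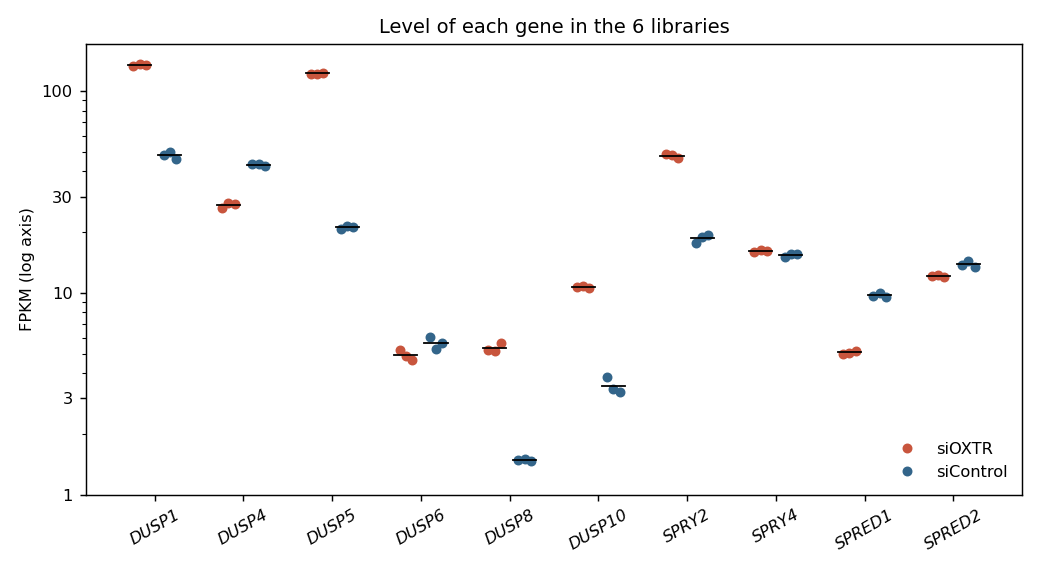
FPKM of the 10 feedback genes (log axis) in the 3 siOXTR libraries (red, left) and the 3 siControl libraries (blue, right), with the mean of each group as a bar. DUSP5 shows the widest gap, with siOXTR libraries near 122 FPKM and siControl libraries near 21.1 FPKM, and the groups of SPRY4 lie closest together.

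**Figure D2:**
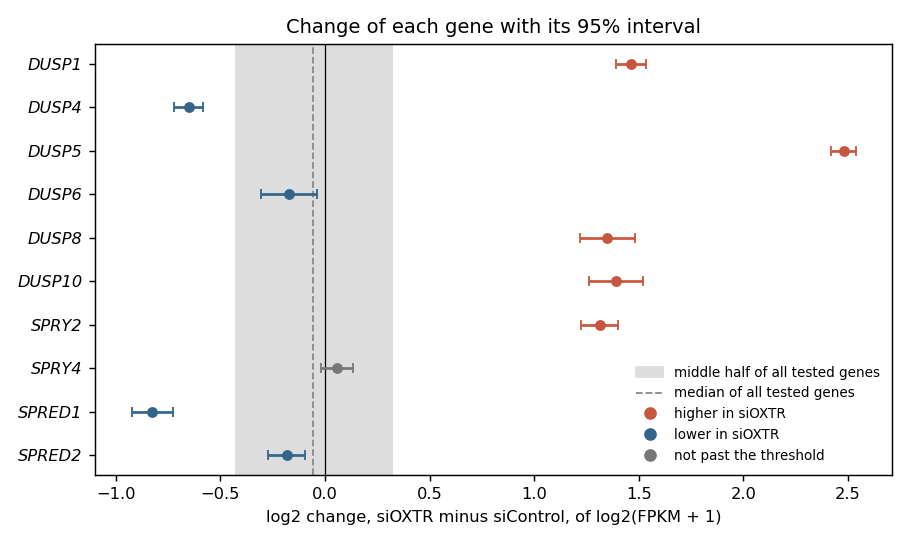
Log2 change of each gene (siOXTR minus siControl, on the log2(FPKM + 1) scale) with its 95% interval, over the range that holds the middle of all tested genes (grey, quartiles -0.43 and 0.32). DUSP1, DUSP5, DUSP8, DUSP10, SPRY2, DUSP4 and SPRED1 lie outside the grey range, and DUSP6, SPRY4 and SPRED2 lie inside it.

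The DNA just upstream of the start sites is shown for 4 genes, chosen after the values and matches were seen: DUSP1 and DUSP8 rose and hold a motif in common, and DUSP6 and SPRY4, whose log2 changes were small, hold none. From RefSeq (GRCh38.p14), 12 windows of 250 bases were used for 8 of the genes. These are DUSP1, DUSP6, DUSP8, DUSP10, SPRY2, SPRY4, SPRED1 and SPRED2. No window of DUSP4 or DUSP5 was used. The authors' own build is not given in the sources used here. Each sequence is the 250 bases before the annotated start, on the gene's strand. Capitals mark matches, on either strand, to any of 7 motifs: the cyclic AMP response element TGACGTCA, the AP-1 site TGANTCA, the ETS site CCGGAAG, the ATF4 composite site TGATGNAA, the E-box CACGTG, the TATA box TATAAA and the CArG box bound by SRF. DUSP1 is chr5:172771196-172771445, DUSP8 is chr11:1572272-1572521, DUSP6 is chr12:89352502-89352751 and SPRY4 is chr5:142324248-142324497, all on the minus strand.
DUSP1: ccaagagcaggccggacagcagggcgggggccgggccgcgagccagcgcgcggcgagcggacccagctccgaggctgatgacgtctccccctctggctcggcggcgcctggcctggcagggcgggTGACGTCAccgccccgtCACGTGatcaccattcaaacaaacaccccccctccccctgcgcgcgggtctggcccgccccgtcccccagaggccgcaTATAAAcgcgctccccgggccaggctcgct
DUSP8: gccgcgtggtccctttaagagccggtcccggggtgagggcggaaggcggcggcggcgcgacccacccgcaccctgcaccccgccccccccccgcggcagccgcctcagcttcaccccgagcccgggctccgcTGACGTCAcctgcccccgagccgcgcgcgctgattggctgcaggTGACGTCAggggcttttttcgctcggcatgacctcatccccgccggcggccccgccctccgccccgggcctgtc
DUSP6: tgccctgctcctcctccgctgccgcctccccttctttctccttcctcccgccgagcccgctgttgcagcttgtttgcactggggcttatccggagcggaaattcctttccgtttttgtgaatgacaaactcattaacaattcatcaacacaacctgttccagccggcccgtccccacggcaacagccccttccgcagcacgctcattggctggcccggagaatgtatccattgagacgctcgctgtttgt
SPRY4: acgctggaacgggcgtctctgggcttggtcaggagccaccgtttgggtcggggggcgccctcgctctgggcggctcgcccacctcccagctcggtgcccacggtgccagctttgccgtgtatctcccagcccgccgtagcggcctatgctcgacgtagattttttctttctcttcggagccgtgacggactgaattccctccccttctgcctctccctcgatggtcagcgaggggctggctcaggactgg

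The DUSP1 window held the cyclic AMP response element at -125 to -118, an E-box at -108 to -103 and a TATA box at -30 to -25, counted back from -1 at the last base before the start. The DUSP8 window held the same element in 2 copies, at -118 to -111 and at -74 to -67. None of these matches overlapped another. This element, which CREB and ATF proteins bind, was in 1.65% of 35114 RefSeq windows of the same length. That share is per window and includes untested genes. Among the 9672 tested genes with any window, 347 held the element. The windows printed for DUSP6 and SPRY4 held none of the 7 motifs. Nor did any window of DUSP10 or SPRY2, which rose as DUSP1 and DUSP8 did, or of SPRED1, which fell. A window of SPRED2 held an ATF4 composite match at -173 to -166 and a TATA box at -31 to -26, motifs in 3.14% and 10.7% of windows. Of 347 tested genes with the TGACGTCA element in a window, 42.7% were higher and 42.1% lower in siOXTR, beside 38.1% and 44.5% of the 9672 tested genes with any window. A match is a string of letters and not a measured binding site.

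Of the nuclear phosphatases, DUSP1 and DUSP5 rose and DUSP4 fell. DUSP5 encodes a nuclear phosphatase that acts on ERK and also holds it in the nucleus. It was at 121.88, 121.83 and 123.46 FPKM in siOXTR libraries, against 20.65, 21.42 and 21.32 FPKM in siControl libraries. The siOXTR libraries were alike and lay far above all siControl libraries. The means were 122 ± 0.927 FPKM in siOXTR and 21.1 ± 0.419 FPKM in siControl (SD, n = 3 each), a 5.79-fold higher level with a log2 change of 2.48 (SE 0.03, limma adjusted p = 4.25e-13). Only 0.446% of all tested genes had a larger log2 change in either direction.

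DUSP1 encodes a nuclear phosphatase that acts on p38, JNK and ERK and is made within minutes of growth factor or stress signals. It was at 132.82, 136.51 and 134.82 FPKM in siOXTR libraries, against 48.40, 50.17 and 46.29 FPKM in siControl libraries, with no overlap. The level was 2.79-fold higher in siOXTR (log2 change 1.46, SE 0.03, limma adjusted p = 3.42e-11). DUSP4, which encodes a nuclear phosphatase of ERK and JNK, went the other way. It was at 26.26, 27.81 and 27.44 FPKM in siOXTR libraries, against 43.29, 43.61 and 42.66 FPKM in siControl libraries, so the highest siOXTR library lay below the lowest siControl library. The level was 1.59-fold lower in siOXTR (log2 change -0.65, SE 0.03, limma adjusted p = 1.16e-08).

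DUSP6 encodes the cytoplasmic phosphatase that is specific for ERK, and it is among the transcripts most often used to read ERK output. It was at 5.21, 4.88 and 4.66 FPKM in siOXTR libraries, against 6.06, 5.28 and 5.66 FPKM in siControl libraries. The highest siOXTR library lay just below the lowest siControl library. The log2 change was -0.17 (95% interval -0.31 to -0.04, limma adjusted p = 0.0230). This call did not hold in 7 of 15 alternative settings, with a log2 change of -0.077 and an adjusted p of 0.25 under quantile scaling, and it was lost without siOXTR library 2 or 3 and without siControl library 1 or 3 (adjusted p between 0.0528 and 0.0915).

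The phosphatases that act mainly on JNK and p38 rose. DUSP8 was at 5.19, 5.14 and 5.65 FPKM in siOXTR libraries, against 1.48, 1.5 and 1.46 FPKM in siControl libraries. It was low in siControl and clearly above that level in every siOXTR library, 3.60-fold on average (log2 change 1.35, SE 0.06, limma adjusted p = 5.47e-09). DUSP10 was at 10.71, 10.77 and 10.58 FPKM in siOXTR libraries, against 3.82, 3.33 and 3.22 FPKM in siControl libraries. The level was 3.09-fold higher, with no overlap (log2 change 1.39, SE 0.06, limma adjusted p = 3.74e-09). For such low genes the log2 scale with a pseudocount of 1 understates the change, which for DUSP8 was 1.84 at a pseudocount of 0.01.

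The 6 phosphatase transcripts together summed to 302, 307 and 307 FPKM in siOXTR libraries, against 124, 125 and 121 FPKM in siControl libraries, a 2.48-fold higher sum. The makeup of that sum differed as well. DUSP5 made up 40.1 ± 0.358% of it in siOXTR and 17.2 ± 0.494% in siControl, whereas DUSP4 made up 8.90 ± 0.188% in siOXTR and 35.1 ± 0.289% in siControl (SD, n = 3 each). DUSP1 was the largest part in both groups, at 44.1 ± 0.291% in siOXTR and 39.2 ± 0.830% in siControl. The cytoplasmic ERK phosphatase DUSP6 made up 1.61 ± 0.104% in siOXTR and 4.60 ± 0.352% in siControl. These sums and shares are descriptions, with no test.

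**Figure D3:**
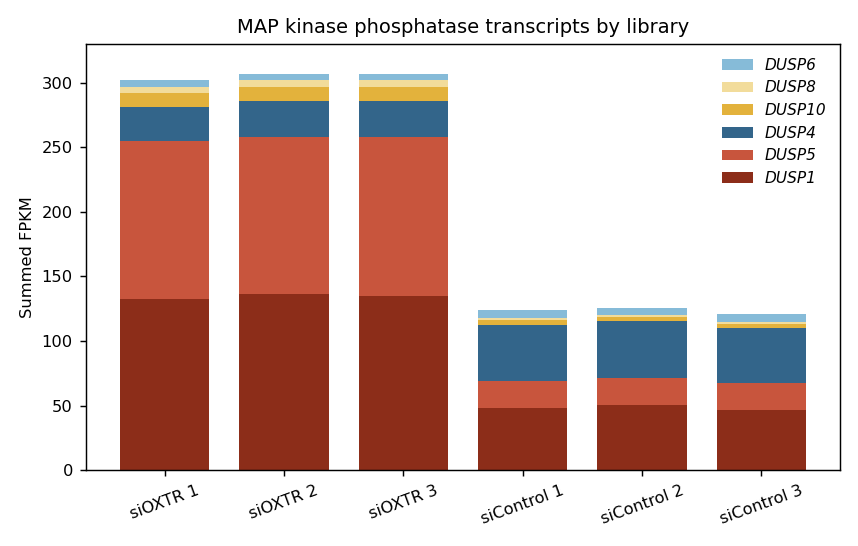
Summed FPKM of the 6 MAP kinase phosphatase genes in each library, stacked by gene, with the 3 siOXTR libraries left of the 3 siControl libraries. The sum lies between 302 and 307 FPKM in siOXTR and between 121 and 125 FPKM in siControl, and DUSP1 and DUSP5 fill most of the siOXTR bars.

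The remaining genes of the same enzyme family went both ways. DUSP16, which encodes another phosphatase of JNK and p38, was at 12.62, 12.70 and 13.26 FPKM in siOXTR libraries, against 5.15, 5.29 and 4.75 FPKM in siControl libraries, and rose by 1.19 on the log2 scale (limma adjusted p = 3.56e-09). The cytoplasmic ERK phosphatase genes DUSP7 and DUSP9 fell by 0.26 and 0.56 on that scale. DUSP7 averaged 11.2 FPKM in siOXTR and 13.5 FPKM in siControl, and DUSP9 averaged 1.56 FPKM in siOXTR and 2.76 FPKM in siControl. DUSP2, a nuclear phosphatase gene best known from immune cells, averaged 0.953 FPKM in siOXTR and 0.897 FPKM in siControl and was too low to be tested. Of the 9 family genes tested, those that act chiefly on JNK and p38 (DUSP8, DUSP10 and DUSP16) were higher. DUSP1, which acts on p38, JNK and ERK, was also higher. Of those known chiefly for ERK, DUSP5 was higher while DUSP6, DUSP7 and DUSP9 were lower, and DUSP4, which acts on ERK and JNK, was lower. This grouping was made after the values were seen.

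By level, the order of the 10 family genes in siOXTR was DUSP1, DUSP5, DUSP4, DUSP16, DUSP7, DUSP10, DUSP8, DUSP6, DUSP9 and DUSP2. In siControl it was DUSP1, DUSP4, DUSP5, DUSP7, DUSP6, DUSP16, DUSP10, DUSP9, DUSP8 and DUSP2. Among neighbours in these orders, the libraries of DUSP8 and DUSP6 overlapped in siOXTR, as did those of DUSP6 and DUSP16 in siControl. The other neighbours did not overlap.

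The Sprouty genes parted. SPRY2 encodes an inhibitor of receptor signalling to RAS that also binds the ubiquitin ligase CBL. It was at 48.53, 48.16 and 46.46 FPKM in siOXTR libraries, against 17.60, 18.96 and 19.31 FPKM in siControl libraries, with a wide gap between the groups. The level was 2.56-fold higher in siOXTR (log2 change 1.31, SE 0.04, limma adjusted p = 2.93e-10). SPRY4, which encodes a Sprouty inhibitor that acts between receptors and RAF, was at 15.88, 16.30 and 16.09 FPKM in siOXTR libraries, against 15.14, 15.53 and 15.57 FPKM in siControl libraries. The siOXTR libraries lay just above the siControl libraries, and the log2 change of 0.06 (95% interval -0.02 to 0.13) did not pass the test (limma adjusted p = 0.139). It passed under quantile and median-ratio scaling, with log2 changes of 0.10 and 0.11.

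Both Spred genes were lower. SPRED1, the gene mutated in Legius syndrome, was at 4.99, 5.06 and 5.16 FPKM in siOXTR libraries, against 9.64, 10.02 and 9.59 FPKM in siControl libraries. The siOXTR level was 1.92-fold lower, with no overlap (log2 change -0.82, SE 0.04, limma adjusted p = 2.85e-08). Its paralog SPRED2 was at 12.07, 12.28 and 11.98 FPKM in siOXTR libraries, against 13.79, 14.42 and 13.44 FPKM in siControl libraries. That difference was small but larger than the spread between libraries (1.15-fold lower, log2 change -0.18, limma adjusted p = 0.00146). Of the related genes, SPRY1 was at 2.31, 2.60 and 2.12 FPKM in siOXTR libraries, against 5.96, 5.53 and 6.04 FPKM in siControl libraries, and fell by 1.04 on the log2 scale. SPRED3 averaged 2.91 FPKM in siOXTR and 2.05 FPKM in siControl and rose by 0.36. SPRY3 averaged 0.107 FPKM in siOXTR and 0.210 FPKM in siControl and was not tested. In both groups SPRY2 was the most abundant of these 7 genes, followed by SPRY4, SPRED2 and SPRED1.

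Ratios of related genes within a library do not change when all values of a library are scaled by 1 factor, although they do under quantile scaling. The ratio of DUSP5 to DUSP6 was 23.4, 24.97 and 26.5 in siOXTR libraries, against 3.41, 4.06 and 3.77 in siControl libraries, a 6.67-fold higher ratio. The ratio of DUSP1 to DUSP4 averaged 4.96 ± 0.0849 in siOXTR and 1.12 ± 0.0327 in siControl, and that of SPRY2 to SPRY4 averaged 2.97 ± 0.0849 in siOXTR and 1.21 ± 0.0405 in siControl (SD, n = 3 each). The 3 pairs thus differed in their change by more than the spread between libraries. The ratio of SPRED1 to SPRED2 was 0.419 ± 0.0104 in siOXTR and 0.702 ± 0.00980 in siControl. DUSP8 and DUSP10 changed by similar amounts, with a ratio of 0.499 ± 0.0309 in siOXTR and 0.430 ± 0.0373 in siControl, and the direction of this small difference turned with a pseudocount of 1 (log2 difference 0.21 without and -0.043 with it). With 3 libraries a group the smallest two-sided p of an exact permutation test is 0.1, so these ratios carry no call.

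**Figure D4:**
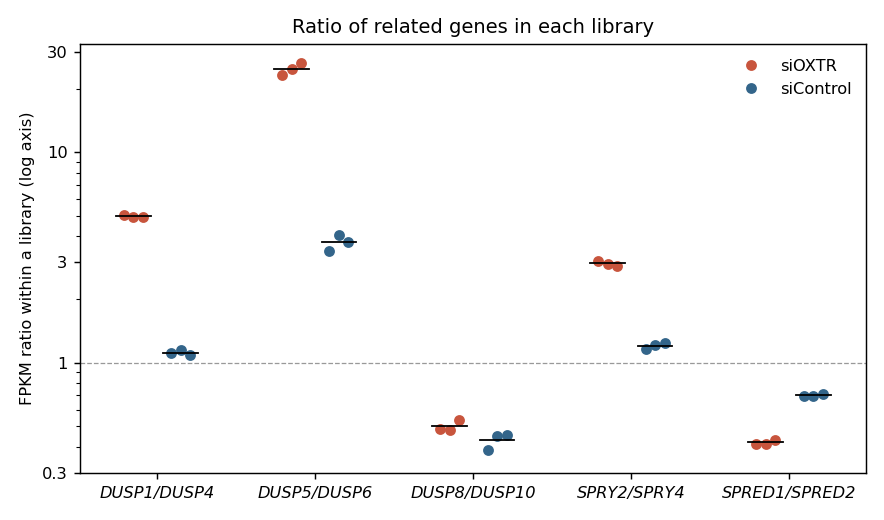
Ratio of the FPKM of 2 related genes within each library (log axis), with the 3 siOXTR libraries (red, left) and the 3 siControl libraries (blue, right) and group means as bars. The ratio of DUSP5 to DUSP6 averages 24.95 in siOXTR and 3.74 in siControl, and the ratio of DUSP8 to DUSP10 lies close together in both groups.

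Upstream of the feedback genes, growth factor transcripts went mostly up and receptor transcripts down. Of 13 ligand genes, 8 were tested, of which 6 rose and 2 fell (75% and 25%, beside 37.7% and 44.8% of all tested genes). Their median log2 change was 0.67, beside -0.06 for all tested genes. Among those that rose, BTC, chosen after its values were seen, reached 1 FPKM in siOXTR libraries only, so the filter itself favoured a rise. FGF2, the gene of basic fibroblast growth factor, averaged 172 ± 1.75 FPKM in siOXTR and 28.98 ± 0.712 FPKM in siControl (SD, n = 3 each; log2 change 2.53). The EGF receptor ligand genes EREG and AREG were 2.34-fold and 1.98-fold higher, and FGF5 fell by 0.89 on the log2 scale. Of 12 receptor genes, 7 were tested and all 7 fell (100%, beside 44.8% of all tested genes, median log2 change -0.72). FGFR4, a fibroblast growth factor receptor known for its role in liver, averaged 4.88 ± 0.271 FPKM in siOXTR and 16.0 ± 0.410 FPKM in siControl. MET averaged 59.0 FPKM in siOXTR and 107 FPKM in siControl, and FGFR1 and EGFR had log2 changes of -0.68 and -0.72.

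The relay from adaptors and RAS to ERK went both ways. Of its 20 genes, 10 rose and 6 fell (50% and 30%, beside 37.7% and 44.8% of all tested genes). The share called, 80%, was near the 82.5% of all tested genes, and the median log2 change was 0.10. The RAS-related gene MRAS averaged 10.6 ± 0.248 FPKM in siOXTR and 2.68 ± 0.267 FPKM in siControl, the exchange factor gene SOS2 and the RAS-related gene RRAS2 had log2 changes of 0.59 and 0.50, and the adaptor gene GRB2 had one of -0.65. MAPK3, which encodes an ERK kinase and was chosen after its value was seen, did not pass the test (log2 change 0.05, limma adjusted p = 0.364). DUSP1, DUSP8, DUSP10 and DUSP16 act in part on kinases of the JNK, p38 and ERK5 relays. Of 12 tested genes of these relays, 4 rose and 6 fell (33.3% and 50%, beside 37.7% and 44.8% of all tested genes). The share called, 83.3%, was near that of all tested genes, and the median log2 change was -0.14. MAP2K6, an activator of p38, averaged 0.207 FPKM in siOXTR and 2.43 FPKM in siControl. It reached 1 FPKM in siControl libraries only, so the filter itself favoured a fall, and the size of its change cannot be judged. MAPK13, chosen after its values were seen and counted as higher, reached 1 FPKM in siOXTR libraries only, where the filter favoured a rise. MAPK9 and MAPK14, the genes of a JNK and a p38 kinase, fell by 0.81 and 0.32 on the log2 scale, and the p38 gene MAPK12 rose by 0.91.

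Of 17 tested brakes on receptors and RAS outside the phosphatase and Sprouty families, 11 rose and 4 fell (median log2 change 0.28). These were 64.7% and 23.5%, beside 37.7% and 44.8% of all tested genes. ERRFI1, which encodes an inhibitor of the EGF receptor, averaged 119 ± 2.09 FPKM in siOXTR and 39.7 ± 0.765 FPKM in siControl (log2 change 1.56). RASAL2, a gene of a protein that switches RAS off, was 2.03-fold higher, and PEA15, which keeps ERK in the cytoplasm, was 1.66-fold higher. PEBP1, the gene of a RAF inhibitor, fell by 0.60 on the log2 scale.

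Other transcripts that ERK is known to raise went both ways. Of 17 tested, 9 rose and 8 fell (52.9% and 47.1%, beside 37.7% and 44.8% of all tested genes, median log2 change 0.14). Among those that fell, HBEGF is also counted with the ligands above and ELK3 with the ETS and SRF genes below. The 4 with the smallest adjusted p were IER3, an immediate early gene, at 1085 ± 17.2 FPKM in siOXTR and 208 ± 3.31 FPKM in siControl, MYC (3.09-fold higher), the pseudokinase gene TRIB1 (3.84-fold higher) and the cytokine gene LIF, which fell by 1.33 on the log2 scale. A published score of ERK pathway output holds 10 transcripts, 4 of them described above (SPRY2, SPRY4, DUSP4 and DUSP6). Of the 9 that were tested, 4 rose, 4 fell and 1 did not pass. Its other 5 tested genes, given here after their values were seen, were PHLDA1 (log2 change 0.85), ETV5 (0.16) and ETV4 (0.14), which rose, and CCND1 (-0.92) and EPHA2 (-1.95), which fell.

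Markers of the integrated stress response and of protein folding stress differed between the same groups in which 5 feedback genes rose and 4 fell. All 6 markers rose (100%, beside 37.7% of all tested genes, median log2 change 3.41). Their summed level was 2187 to 2258 FPKM in siOXTR libraries and 434 to 441 FPKM in siControl libraries. ATF4, a transcription factor of that response, averaged 495 ± 13.2 FPKM in siOXTR and 119 ± 1.31 FPKM in siControl, and DDIT3 averaged 262 ± 13.2 FPKM in siOXTR and 12.0 ± 0.517 FPKM in siControl. PPP1R15A, which reverses stress-induced arrest of translation, and the pseudokinase gene TRIB3 had log2 changes of 3.62 and 3.30. The part of this response in the change of the feedback genes was not tested.

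**Figure D5:**
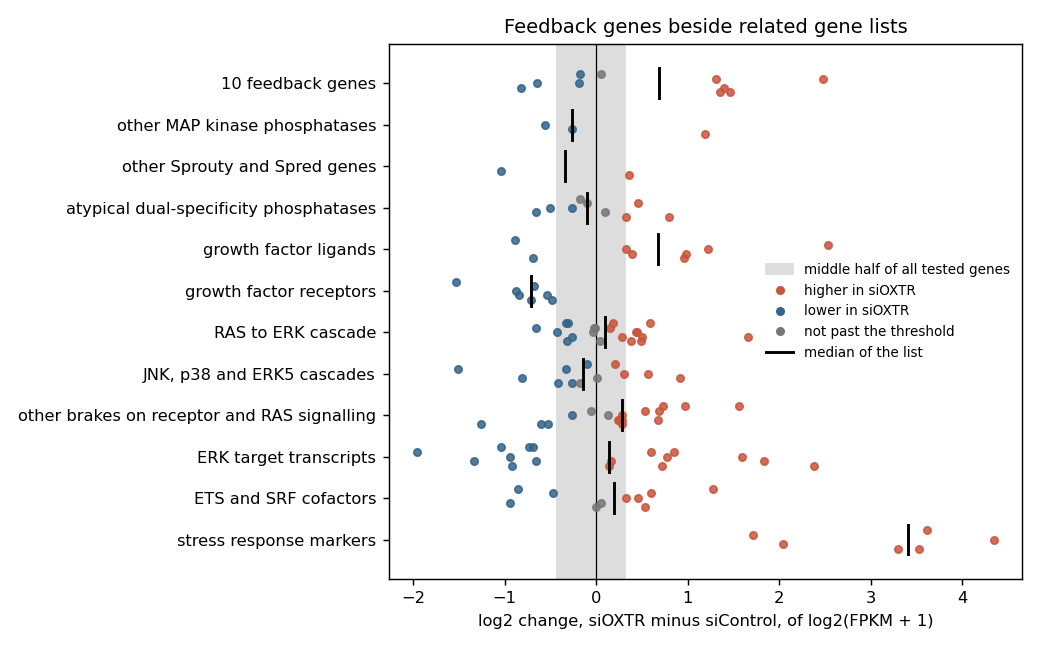
Log2 change (siOXTR minus siControl, on the log2(FPKM + 1) scale) of every tested gene of the 10 feedback genes and of 11 related lists, 1 point per gene, with the median of each list as a black bar and the middle of all tested genes in grey. All 7 tested receptor genes lie below 0 and all 6 stress markers above it, whereas the feedback genes spread from -0.82 to 2.48. HBEGF and ELK3 belong to more than 1 list and have a point in each.

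Some of these levels may carry a limit from shared reads, which was not tested. GENCODE release 29 names 2 processed pseudogenes after DUSP5 and 3 after DUSP8, and 4 of the 10 genes, DUSP1, DUSP6, DUSP8 and SPRY4, overlap a gene on the opposite strand. SPRED2 overlaps a gene on the same strand. None of these pseudogenes or overlapping genes was listed under its GENCODE name in the libraries. How the authors assigned such reads, and whether they used strand, is not given in the sources used here.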

How the data were processed

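RNA of 6 SNU449 libraries (3 siOXTR, 3 siControl) was prepared by the BGISEQ-500 protocol, per the labels' protocols. The authors deposited FPKM values, per the file headers, with 2 decimals, 1 file per library. Which aligner, counting tool, build, annotation or filter was used is not given in the sources used here. Of 247 low values, 32.8% lay within 0.1 of a whole multiple of their gene's lowest value, where chance gives 20%, and read counts could thus not be rebuilt. The depth is unknown, and precision is given by the spread between libraries.

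Genes with at least 1 FPKM in at least 3 libraries were tested as log2(FPKM + 1) in limma 3.58.1 under R 4.3.3, fitting group alone with a mean-variance trend, two-sided, adjusted over all genes tested by the Benjamini-Hochberg method. The script was tested on simulated data. Fold values are ratios of mean FPKM. Members and gene lists were chosen with earlier results of these data known. Named are OXTR, the 10 members, the rest of both families and, in each list, the 4 genes with the smallest adjusted p. The replicate numbers are not said to pair the libraries, so the main fit held no replicate block. Alternatives were other pseudocounts, filters, scalings, empirical Bayes settings, a replicate block and leaving out each library. Some genes of the lists are not reported here.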

Additional observations from a re-analysis of the deposited data

How the results depend on the processing

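Of 10 feedback genes, 8 kept their direction and side of the threshold under all 15 alternatives (largest adjusted p 0.0137). DUSP6 lost its call with no filter on low values (log2 change -0.17), quantile (-0.077) or median-ratio scaling (-0.13), and its change was between -0.21 and -0.13 with 1 library left out; the cause was not tested. SPRY4 passed under quantile (0.10) and median-ratio scaling (0.11), which move the median of all tested genes to 0.001 and -0.01. Without a library, 3 to 5 atypical phosphatases were lower, 5 without siOXTR library 2, against 3 in all. A filter at 5 FPKM left 1 other MAP kinase phosphatase lower and 0 other Sprouty or Spred genes higher, since fewer genes were tested, and with no filter 2 were lower. With a pseudocount of 1 the log2 ratio difference was -0.043 for DUSP8 to DUSP10 and -0.64 for SPRED1 to SPRED2. Among 110 other genes, 1601 of 1625 values were on the same side of the threshold and 0 turned.

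Deviations of libraries with the same number correlated at -0.01, -0.07 and 0.04, and not every library correlated best with its own number. No pairing by number was visible, although so few libraries cannot exclude a shared culture or day. With the replicate block, 4388 genes were higher and 5205 lower, against 4395 and 5218. Depth is unknown, so changes of genes under 1 FPKM cannot be judged.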

Other observations

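The atypical dual-specificity phosphatase genes, relatives of the MAP kinase phosphatases that lack their kinase-docking domain, went both ways. Of 9 tested, 3 rose and 3 fell (33.3% each, beside 37.7% and 44.8% of all tested genes). Their median log2 change was -0.10, beside -0.06 for all tested genes. DUSP11, which encodes a phosphatase of RNA ends, averaged 26.6 ± 2.06 FPKM in siOXTR and 14.96 ± 1.605 FPKM in siControl (SD, n = 3 each), and DUSP3 averaged 67.8 ± 1.94 FPKM in siOXTR and 49.2 ± 1.56 FPKM in siControl. DUSP23 averaged 26.9 ± 0.553 FPKM in siOXTR and 43.0 ± 2.69 FPKM in siControl, and DUSP14 fell by 0.50 on the log2 scale.

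ERK reaches many of its target genes through transcription factors of the ETS and SRF groups. Of 10 such genes, 5 rose and 3 fell (50% and 30%, beside 37.7% and 44.8% of all tested genes). The median log2 change was 0.19. ETS1 averaged 88.9 ± 1.64 FPKM in siOXTR and 36.2 ± 1.13 FPKM in siControl, and ERF, which encodes a repressor that ERK moves out of the nucleus, was 1.55-fold higher. SRF averaged 7.10 ± 0.115 FPKM in siOXTR and 13.6 ± 0.233 FPKM in siControl, and ELK3 averaged 15.5 ± 0.640 FPKM in siOXTR and 30.8 ± 0.451 FPKM in siControl.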
